A study of Homo sapiens with 14 samples.

Results

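Neurotransmitter receptors are membrane proteins that bind glutamate, GABA, glycine, acetylcholine, serotonin or ATP and either open an ion channel or signal through a G protein. Most of the ion channels are assembled from several subunits, each made by its own gene, so that the set of subunit genes a cell transcribes sets which receptors it can build. Neuroblastoma arises from the sympathoadrenal lineage of the neural crest, whose mature neurons receive acetylcholine through nicotinic receptors. The genes described here were every entry of the count tables whose symbol begins with the root of an ionotropic glutamate (GRIA, GRIK, GRIN, GRID), metabotropic glutamate (GRM), GABA (GABR, GABBR), glycine (GLR), nicotinic (CHRN), muscarinic (CHRM), serotonin (HTR) or P2X purinergic (P2RX) receptor gene, leaving out CHRNA1. The rule used names and no measured value. It took 95 of the 17810 genes listed in the OmoMYC experiment and 96 of the 19143 listed in the dTAG47 experiment. Of these, 2 in each experiment are not receptor subunits, namely GRID2IP, which encodes a scaffold protein of delta receptors, and the readthrough gene P2RX5-TAX1BP3.

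All libraries came from CHP-134, an established neuroblastoma cell line with amplified MYCN, and RNA was sequenced after ribosomal RNA depletion. In the first experiment, cells engineered with a lentiviral doxycycline-inducible vector carrying either EGFP or OmoMYC were both given 1 µg/ml doxycycline for 3 days, with 3 libraries per group. OmoMYC is a MYC-derived protein that competes with MYC family proteins for their partners and DNA sites, and EGFP was its control. The EGFP and OmoMYC cells were engineered separately, so that the transgene and the line that carries it cannot be told apart. In the second experiment, parental CHP-134 cells received 500 nM dTAG47 or DMSO for 18 h, with 4 libraries per group. dTAG47 recruits a ubiquitin ligase to proteins that carry the matching tag, and parental cells carry no tagged protein. The experiments differ in cells, serum and time, and a level was tested only within its own table.

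The libraries held 28060817 to 38358128 counted reads in the OmoMYC experiment and 40861430 to 53451641 in the dTAG47 experiment. Of 8 adrenergic neuroblastoma markers, 6 reached 1 CPM (reads scaled to library size) in every library (ISL1, CHGA, GATA3, HAND2 and PHOX2A among them), while TH and DBH were below it. No immune or endothelial marker reached 1 CPM, MYOG was the 1 skeletal muscle marker that did, and 5 Schwann or glial markers summed to 5.30 to 8.40 CPM with EGFP and 6.68 to 7.40 CPM with OmoMYC. In the parental libraries, where SOX10 reached 1 CPM, they summed to 7.71 to 8.32 CPM with DMSO and 9.89 to 12.4 CPM with dTAG47, without overlap, and their part in the dTAG47 results was not tested. The summed level of 6 mesenchymal markers was 449.9 to 480.9 CPM in EGFP libraries and 365 to 378 CPM in OmoMYC libraries, and its part in the results below was not tested. The EGFP libraries differed more among themselves than the OmoMYC libraries, with a chi-square per degree of freedom over genes of 8.30 to 44.3 between pairs against 2.86 to 8.94.

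With OmoMYC, 24 of the 66 receptor-rule genes that passed the filter on low counts were higher and 10 were lower at a Benjamini-Hochberg false discovery rate (FDR) of 0.05 by the edgeR quasi-likelihood test, and 32 were not called. The 51.5% called lies beside the 53.0% called among all 13803 genes tested, so the share called among the members was near the background. By direction, 36.4% were higher against 27.3% of all genes, and 15.2% were lower against 25.7%. A correction for GC content, exon length and gene span gave 20 higher and 19 lower, with 59% of all genes called in either direction. Leaving out OmoMYC replicate 3 gave 15 higher and 10 lower, with 41% of all genes called. Without EGFP replicate 1 the counts were 18 higher and 13 lower, with 54.2% of all genes called. The sizes differed more than the counts: 13 members, or 19.7%, were called with a change past 2-fold, beside 8.24% of all genes. Of these, 11 were higher (all genes, 6.68%) and 2 were lower (all genes, 1.56%). The libraries of the groups did not overlap for 38 members, or 57.6%, beside 62.3% of all genes. The median log2 fold change over the 66 was 0.14 (all genes, 0.01), and with the correction it was -0.07. The median absolute log2 fold change was 0.50 (all genes, 0.31). With dTAG47, where no member was called, it was also larger for the members, at 0.10 (all genes, 0.06). The other 29 entries did not pass the filter. They included GRIA1, GRM6, most serotonin receptor genes and the muscarinic gene CHRM5.

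**Figure D1:**
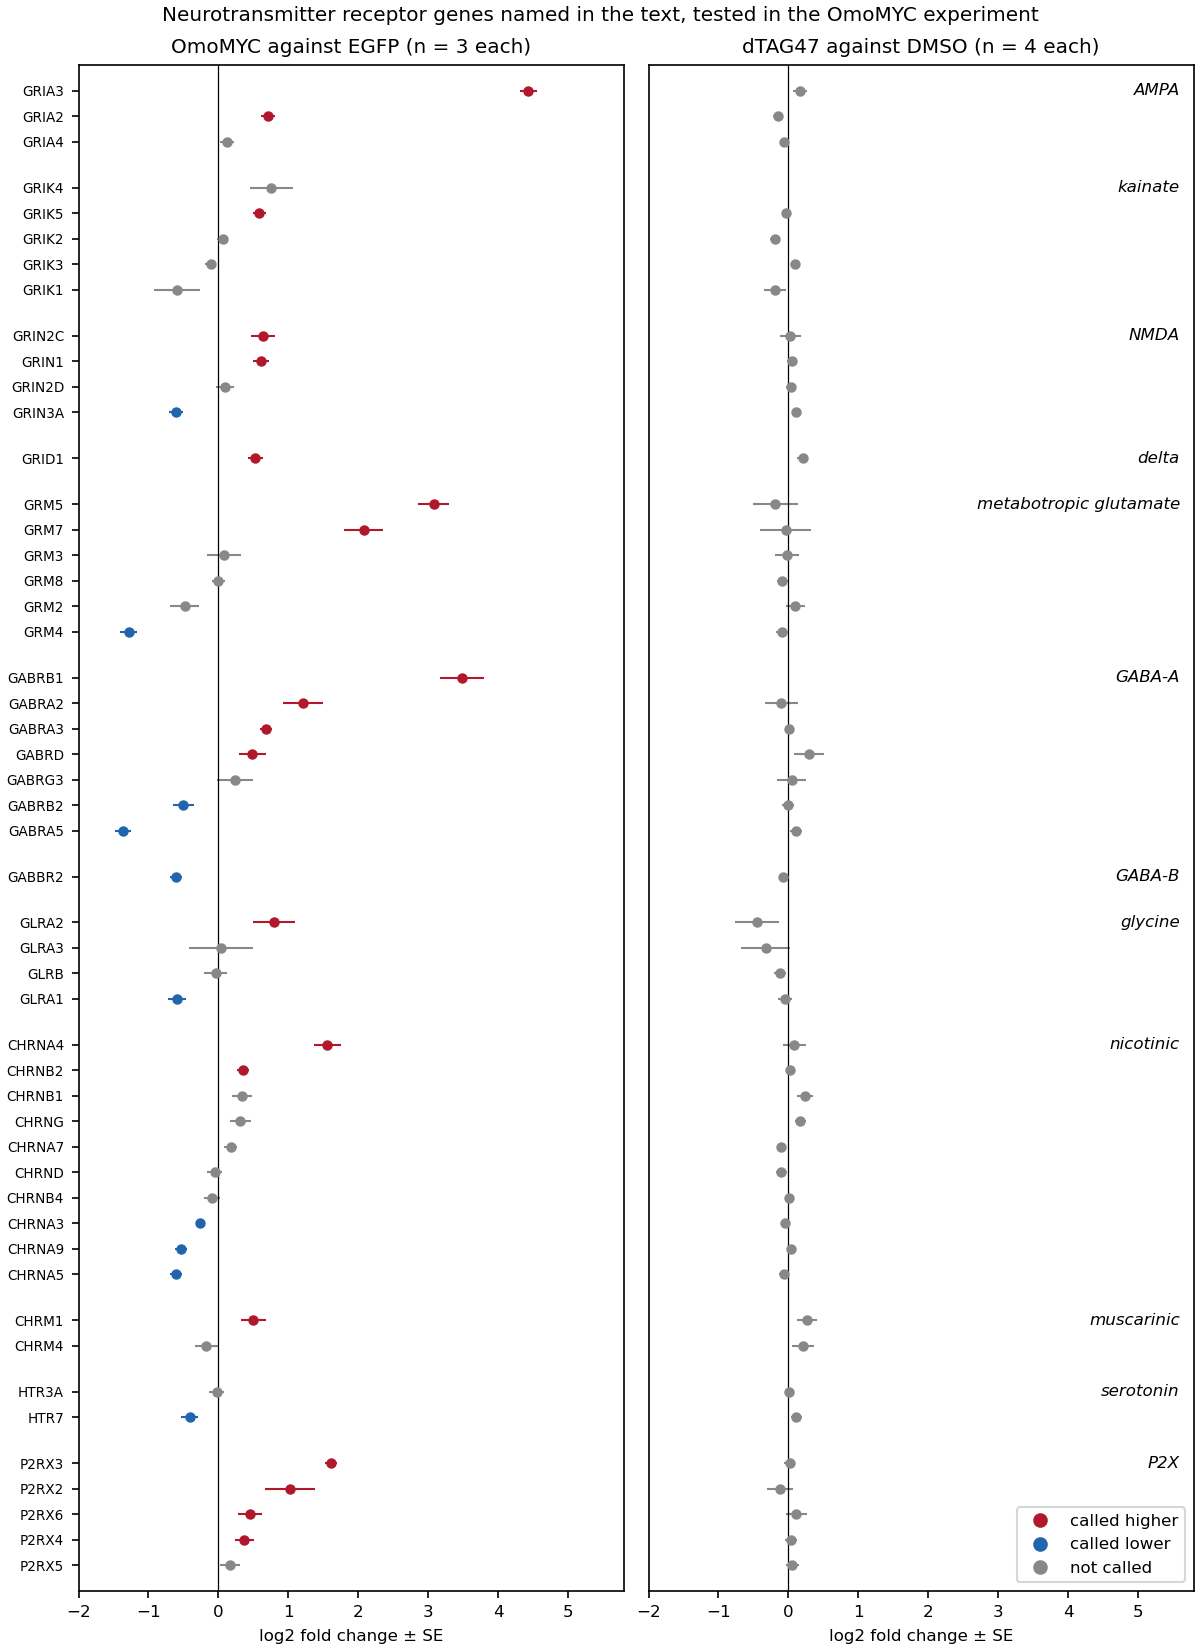
Log2 fold change with its standard error for receptor genes tested in the OmoMYC experiment, limited to those named in the text and grouped by family, in OmoMYC against EGFP (left, 3 libraries per group) and in dTAG47 against DMSO (right, 4 per group, no point where the gene was not tested). Colours mark genes called higher or lower at an FDR of 0.05. GRIA3, GABRB1, GRM5 and GRM7 stand farthest to the right on the left side, and no point on the right side is coloured.

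The members called with the farthest shifts came from the AMPA, GABA-A and metabotropic glutamate families, among others. A set of 300-base windows at RefSeq gene starts (GRCh38.p14, from 250 bases before the start to 50 after it) held 65 of the 91 receptor symbols, too few for any share over the members. Windows of 3 members that moved past 2-fold are shown because they can be read beside the recognition site of MYC proteins, the E-box CACGTG, which is set in capitals and reads the same on both strands. The E-box occurred in 7.43% of all 27305 windows and the variant CACGCG (either strand) in 11.4%. GABRB1 and GRM5 rose and GRM4 fell, as described below.
GABRB1, chr4:47031317-47031616, plus strand: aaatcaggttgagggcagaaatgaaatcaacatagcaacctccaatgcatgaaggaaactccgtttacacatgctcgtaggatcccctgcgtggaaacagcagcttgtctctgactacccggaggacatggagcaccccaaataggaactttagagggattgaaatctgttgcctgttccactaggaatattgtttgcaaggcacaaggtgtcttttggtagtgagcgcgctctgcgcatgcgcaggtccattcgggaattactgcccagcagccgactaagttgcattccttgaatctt
GRM5, chr11:89065933-89066232, minus strand: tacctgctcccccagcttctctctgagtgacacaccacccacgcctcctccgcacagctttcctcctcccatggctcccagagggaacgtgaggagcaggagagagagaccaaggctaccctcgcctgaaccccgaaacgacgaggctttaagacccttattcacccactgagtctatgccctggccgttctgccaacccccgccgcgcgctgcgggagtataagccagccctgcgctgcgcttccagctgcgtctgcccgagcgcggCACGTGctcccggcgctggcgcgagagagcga
GRM4, chr6:34146038-34146337, minus strand: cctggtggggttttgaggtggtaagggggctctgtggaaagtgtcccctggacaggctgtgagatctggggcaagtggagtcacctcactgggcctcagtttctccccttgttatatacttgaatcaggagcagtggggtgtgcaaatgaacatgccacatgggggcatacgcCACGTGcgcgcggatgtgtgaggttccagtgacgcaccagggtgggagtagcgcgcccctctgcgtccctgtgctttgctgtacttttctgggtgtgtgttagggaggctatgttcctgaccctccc
One gene that rose and GRM4, which fell, both carry 1 E-box in this window, and the GABRB1 window carries none. Windows were read for the farthest called rises and falls that the set held. The window of GRIN3A, which fell by less than 2-fold, was read too. It carries no E-box and is not shown. A match is a string of letters and no binding was measured here.

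AMPA receptors carry most fast excitatory transmission in the brain, and their 4 subunits are encoded by GRIA1 to GRIA4. GRIA3 (ENSG00000125675.13, hg19 chrX:122318006-122624766) had 4.70, 4.87 and 3.44 CPM in the EGFP libraries and 91.6, 98.4 and 91.5 CPM in the OmoMYC libraries. Every OmoMYC library lay far above every EGFP library, and the rise was 21.6-fold (log2 fold change 4.43 ± 0.12 SE, the form used in parentheses below, edgeR FDR 1.12e-09). In bulk RNA, more cells with a transcript and more transcript per cell cannot be told apart. GRIA2, the subunit whose edited form keeps calcium out of the channel, had 59.5, 49.5 and 44.4 CPM with EGFP and 80.4, 89.1 and 81.0 CPM with OmoMYC, a 1.63-fold rise (0.71 ± 0.10, edgeR FDR 0.000322). GRIA4, the member of this family with the highest level per kb of exon in DMSO libraries, was not called, with 31.3 ± 3.74 CPM (SD, n = 3) against 34.2 ± 2.26 CPM, though without EGFP replicate 1 it was called higher (0.21, edgeR FDR 0.0325). GRIA1 had 0 to 7 reads in each library of this experiment.

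Read per kb of exon, the summed AMPA subunit level was 7.24 ± 0.98 CPM per kb in EGFP libraries and 23.7 ± 1.19 in OmoMYC libraries (SD, n = 3). The make-up of that sum differed as well. GRIA3 made up 9.29% ± 1.16 of it with EGFP and 61.5% ± 0.46 with OmoMYC, GRIA2 went from 49.6% to 24.8%, and GRIA4 from 41.0% to 13.7%. GRIA3 thus passed from the lowest of the 3 expressed subunits to the highest, and the shares of the groups did not overlap for any of the 3. Parental cells, scaled in their own table, gave 59.1% GRIA4, 31.9% GRIA2 and 9.08% GRIA3 with DMSO.

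**Figure D2:**
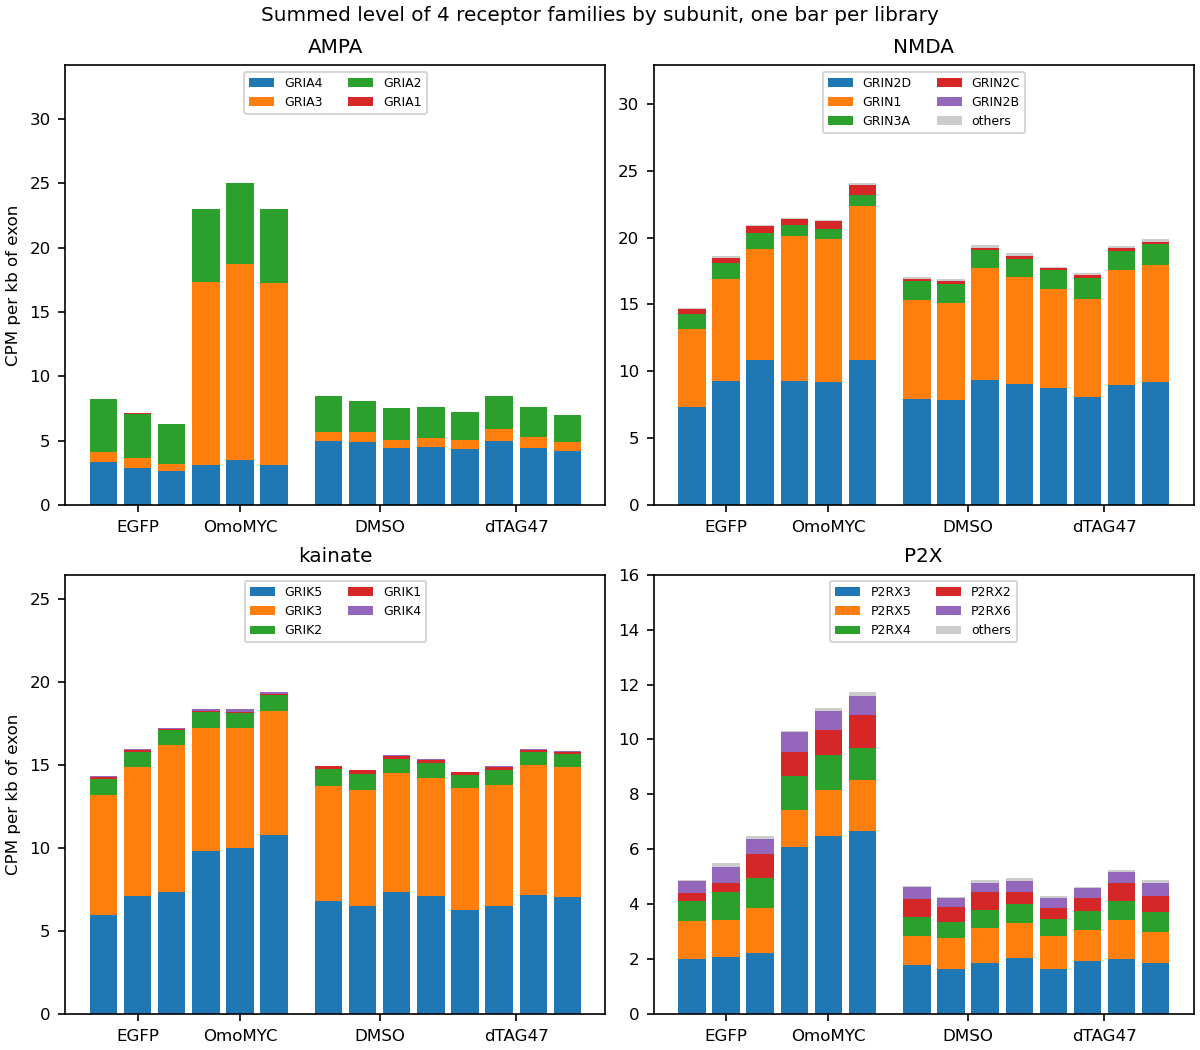
Summed level of 4 receptor families in CPM per kb of exon, with 1 stacked bar per library and colours for the subunit genes; the gap separates the experiments, which were scaled separately. The AMPA bars of the OmoMYC libraries stand near 24 with GRIA3 as the largest block, the P2X bars of those libraries stand near 11 with P2RX3 as the largest, and the DMSO and dTAG47 bars look alike in height.

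Delta receptors resemble ionotropic glutamate receptors in sequence but act mainly as synaptic organisers that bind cerebellins. GRID1 went from 9.02 ± 0.63 to 13.0 ± 1.25 CPM (0.53 ± 0.11, edgeR FDR 0.00223), but the correction for GC content, exon length and gene span turned this to -0.10 (edgeR FDR 0.37). The scaffold gene GRID2IP, taken by the rule through its name, had 1.89, 2.08 and 2.45 CPM with EGFP and 4.50, 5.19 and 5.82 CPM with OmoMYC, 2.42-fold higher (1.28 ± 0.16, edgeR FDR 0.000102). The scaffold gene's libraries did not overlap between the groups.

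NMDA receptors need the GRIN1 subunit, joined by GRIN2 or GRIN3 subunits that set channel kinetics and calcium entry. GRIN1 had 64.6, 83.9 and 91.5 CPM with EGFP and 119, 118 and 128 CPM with OmoMYC, a 1.52-fold rise (0.60 ± 0.11, edgeR FDR 0.00135) that was smaller with the GC content, exon length and gene span correction (0.19, edgeR FDR 0.00103). GRIN2C was called higher (3.38 ± 0.54 to 5.26 ± 1.09 CPM, 0.64 ± 0.18, edgeR FDR 0.0115), a call lost without EGFP replicate 2 or without OmoMYC replicate 3, where the highest edgeR FDR was 0.069, and with the GC content, exon length and gene span correction (edgeR FDR 0.153). GRIN3A, whose subunit lowers calcium permeability, fell from 9.37, 10.2 and 10.0 CPM to 6.82, 6.15 and 6.45 CPM (-0.61 ± 0.10, edgeR FDR 0.0007). GRIN2D had the highest level per kb of this family and was not called (50.4 ± 9.84 to 53.9 ± 4.99 CPM, 0.10 ± 0.13). It became a fall of 0.31 on the log2 scale with the GC content, exon length and gene span correction (edgeR FDR 1.68e-05). The obligatory subunit and 1 accessory subunit thus moved in opposite directions.

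Kainate receptors combine the channel-forming GRIK1 to GRIK3 subunits with the high-affinity subunits GRIK4 and GRIK5. GRIK5 had 34.3, 40.7 and 42.1 CPM with EGFP and 56.2, 57.2 and 61.9 CPM with OmoMYC (0.58 ± 0.09, edgeR FDR 0.000458), and it was the 1 called member of 5. The rise was 0.18 with the GC content, exon length and gene span correction (edgeR FDR 0.00418). GRIK3 was the highest member per kb with EGFP and was not called (83.5 ± 8.86 to 77.3 ± 1.15 CPM), though it was lower without EGFP replicate 1 (-0.19, edgeR FDR 0.0185) and with the GC content, exon length and gene span correction (-0.53, edgeR FDR 1.95e-09). GRIK5 went from 42.9% to 54.5% of the summed kainate level per kb and GRIK3 from 50.1% to 39.4%.

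Metabotropic glutamate receptors signal through G proteins, with GRM5 coupled to phospholipase C and GRM4 and GRM7 among those coupled to inhibition of adenylyl cyclase. GRM5 (ENSG00000168959.10, chr11:88237744-88799150) had 0.347, 0.358 and 0.344 CPM with EGFP and 3.51, 2.78 and 2.70 CPM with OmoMYC, an 8.45-fold rise (3.08 ± 0.23, edgeR FDR 2.85e-06). An antisense RNA gene, GRM5-AS1, covers 50.2% of its exon bases on the other strand. The strand setting of the counting was not given in the sources used here, so reads of the pair cannot be told apart. All 3 OmoMYC libraries lay above all 3 EGFP libraries.

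Among the cyclase-inhibiting members, GRM7 (chr3:6811688-7783220) had 0.347, 0.358 and 0.448 CPM with EGFP and 1.94, 1.25 and 1.78 CPM with OmoMYC (2.08 ± 0.28, edgeR FDR 0.000171). GRM4 (ENSG00000124493.9, chr6:33986420-34123399) went the other way, from 14.6, 14.4 and 17.6 CPM to 5.80, 6.02 and 7.30 CPM, which is 2.44-fold lower (-1.29 ± 0.13, edgeR FDR 2.25e-05). The groups did not overlap for either gene. GRM8 had 10.3 CPM in both groups (log2 fold change -0.00 ± 0.10) and was not called, and neither were GRM2 and GRM3. With the GC content, exon length and gene span correction GRM8 (-0.29, edgeR FDR 0.00643) and GRM2 (-0.74, edgeR FDR 0.00247) were called lower. GRM2 was also called lower without EGFP replicate 1 or without OmoMYC replicate 2 (lowest edgeR FDR 0.0346). The family's summed level per kb was 3.27 ± 0.18 with EGFP and 3.12 ± 0.04 with OmoMYC, so that its rises and its fall left the sum within the spread of the EGFP libraries.

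**Figure D3:**
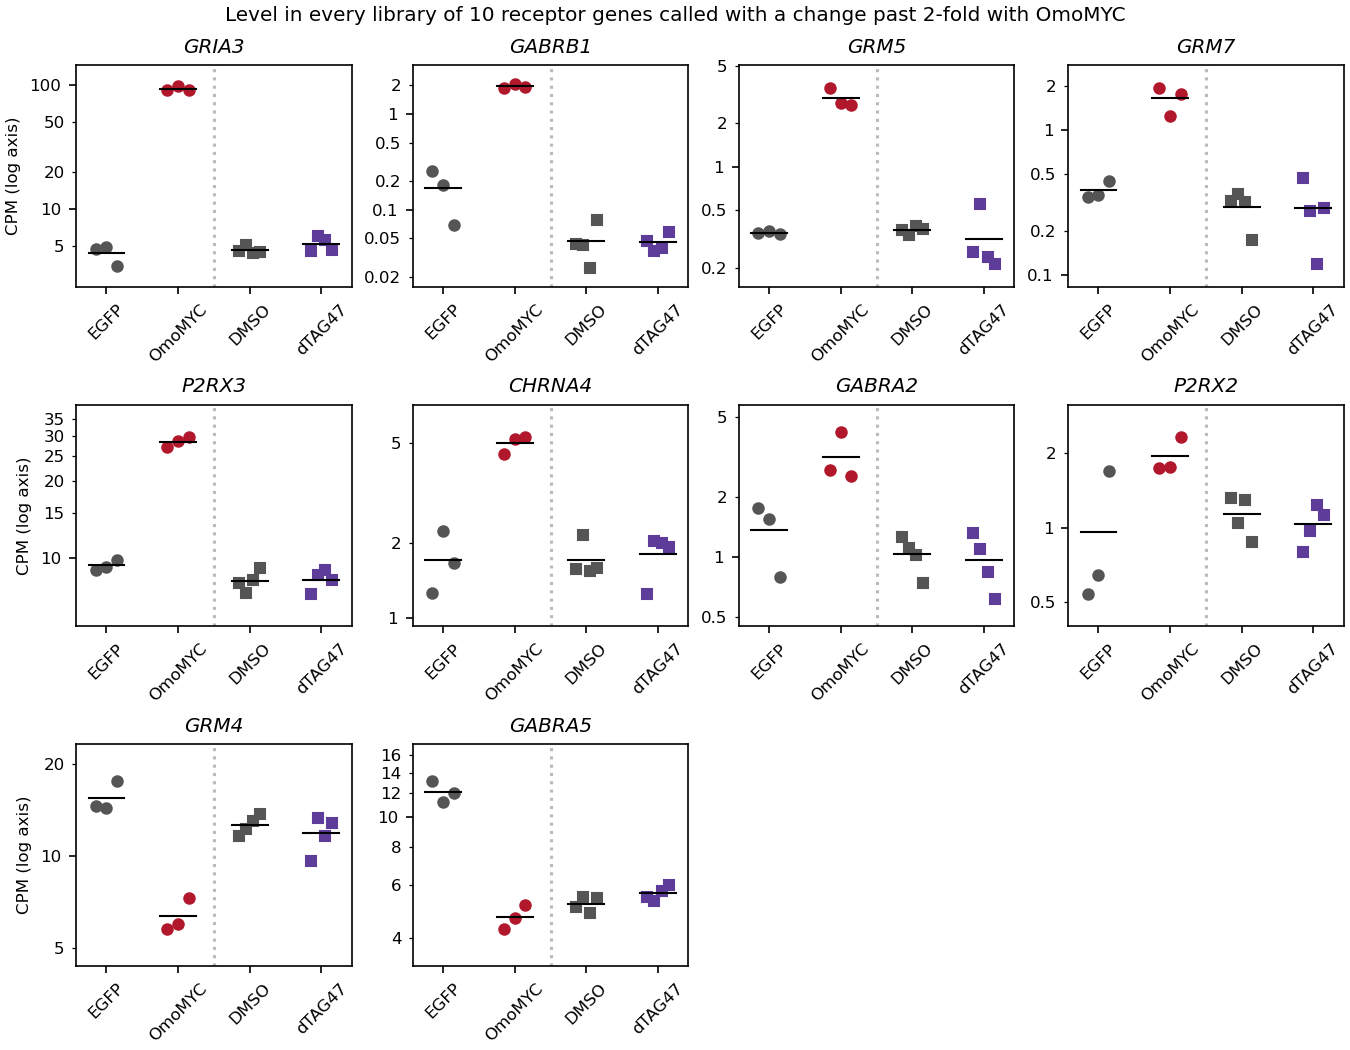
CPM in every library (log axes, each scaled to its gene) for 10 receptor genes called with a change past 2-fold with OmoMYC; circles are EGFP and OmoMYC libraries, squares are DMSO and dTAG47 libraries from a table scaled separately, and bars are group means. The OmoMYC circles lie above every EGFP circle for 8 genes and below every one for GRM4 and GABRA5, with the gap narrowest for P2RX2, while the DMSO and dTAG47 squares overlap for each gene.

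GABA-A receptors are chloride channels, usually of alpha, beta and gamma or delta subunits, that mediate most fast inhibition. GABRB1 (ENSG00000163288.9, chr4:46995740-47428464), which encodes the beta1 subunit, had 8, 5 and 2 reads in the EGFP libraries and 54, 79 and 58 reads in the OmoMYC libraries. In CPM this was 0.252, 0.179 and 0.0689 against 1.84, 2.05 and 1.91, an 11.2-fold rise (3.49 ± 0.32, edgeR FDR 1.36e-05). GABRA2, its neighbour on chromosome 4, went from 1.77, 1.54 and 0.792 CPM to 2.73, 4.20 and 2.53 CPM (1.21 ± 0.28, edgeR FDR 0.00481). The third gene of this cluster, GABRG1, had 1 to 10 reads per library and was not tested. The groups did not overlap for either tested neighbour.

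GABRA5 (ENSG00000186297.7, chr15:27112058-27194355), which encodes the alpha5 subunit, fell from 13.1, 11.2 and 12.0 CPM to 4.30, 4.67 and 5.13 CPM. That is 2.58-fold lower (-1.37 ± 0.11, edgeR FDR 7.53e-06). The groups did not overlap, and GABRG3, a gamma subunit gene near it, was not called (1.01 ± 0.10 to 1.22 ± 0.35 CPM). GABRA3 on the X chromosome went from 22.2, 22.6 and 24.5 CPM to 37.7, 39.2 and 34.1 CPM (0.68 ± 0.09, edgeR FDR 0.000118). GABRA3 made up 21.7% of the summed GABA-A level per kb with EGFP and 32.8% with OmoMYC, and GABRA5 went from 13.1% to 4.82%. The sum itself was 25.7 ± 1.17 with EGFP and 27.1 ± 1.49 with OmoMYC. It leaves out GABRQ, which had no exon length in the annotation used, so the shares are of an incomplete family.

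Calls of 2 further GABA-A genes depended on single libraries. GABRD, the delta subunit gene of extrasynaptic receptors, was called higher at an edgeR FDR of 0.0483 (2.54 ± 0.58 to 3.55 ± 0.45 CPM), and leaving out any 1 library other than EGFP replicate 3 lost the call, up to an edgeR FDR of 0.16, as did the GC content, exon length and gene span correction (edgeR FDR 0.496), edgeR with RLE factors and DESeq2. GABRB2 was called lower (7.36 ± 1.54 to 5.22 ± 0.38 CPM, edgeR FDR 0.019), and lost its call without OmoMYC replicate 3 at an edgeR FDR of 0.0524.

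GABA-B receptors are G protein-coupled and need both a GABBR1 and a GABBR2 subunit. GABBR2 went from 17.6, 18.5 and 19.1 CPM with EGFP to 11.5, 11.8 and 13.0 CPM with OmoMYC, 1.52-fold lower (-0.61 ± 0.09, edgeR FDR 0.000354), and -1.07 with the GC content, exon length and gene span correction (edgeR FDR 2.05e-10). GABBR1 has no usable value in this experiment: its table lists the symbol under 3 identifiers, each with 0 to 2 reads per library, whereas in the parental table the gene had 526 to 786 reads. GABRQ, a GABA-A theta subunit gene, likewise had 0 reads in all 6 libraries and 286 to 418 reads in the parental libraries. These zeros are not read here as low expression.

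Glycine receptors are the other chloride channels of fast inhibition. GLRA1, the adult alpha1 subunit gene, went from 4.95, 5.91 and 6.03 CPM to 3.68, 3.50 and 4.01 CPM (-0.59 ± 0.13, edgeR FDR 0.00363). GLRA2, the gene of the fetal alpha2 form, was called higher below 1 CPM (0.488 ± 0.19 to 0.844 ± 0.05 CPM, edgeR FDR 0.0456), and the call was lost on leaving out any 1 library other than EGFP replicate 2, up to an edgeR FDR of 0.179, and in DESeq2. GLRB, whose beta subunit ties the receptor to the scaffold gephyrin, and GLRA3 were not called.

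Nicotinic receptors are acetylcholine-gated cation channels, and those of autonomic ganglia are built mainly from the alpha3, beta4 and alpha5 subunits. Their genes CHRNA5, CHRNA3 and CHRNB4 lie side by side at chr15:78857862-79020096. CHRNA3 had the highest level per kb of all the receptor genes, at 51.9 ± 1.89 CPM per kb with EGFP and 70.4 ± 0.59 with DMSO. Among the genes given here, CHRNB4 (18.0 ± 3.09 CPM per kb), HTR3A (16.3 ± 2.46) and CHRNB2 (13.2 ± 1.55) followed in EGFP libraries, and CHRNB4 differed from HTR3A by less than the SD of either. In DMSO libraries HTR3A (29.95 ± 1.58), CHRNB4 (19.2 ± 1.27), CHRNA5 (17.3 ± 1.24) and CHRNB2 (13.4 ± 0.55) followed. A ganglionic subunit gene thus led the receptor genes in both sets of control cells.

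With OmoMYC, CHRNA5 went from 33.8, 36.4 and 33.4 CPM to 22.2, 24.5 and 20.9 CPM (-0.61 ± 0.09, edgeR FDR 0.000255). CHRNA3 went from 237, 251 and 254 CPM to 212, 207 and 200 CPM (-0.26 ± 0.06, edgeR FDR 0.00559). CHRNB4 was not called (89.8 ± 15.4 to 84.4 ± 2.12 CPM), though without EGFP replicate 1 it was (-0.24, edgeR FDR 0.00264). It was also called lower with the GC content, exon length and gene span correction (-0.27, edgeR FDR 0.0407). So 2 of the 3 clustered genes were called lower in the main fit. An lncRNA gene on the other strand covers 23.0% of the CHRNA5 exon bases. CHRNA9, whose alpha9 subunit is known from cochlear hair cells, also fell, from 27.6, 24.0 and 24.0 CPM to 17.4, 17.7 and 17.1 CPM (-0.54 ± 0.09, edgeR FDR 0.000614). The GC content, exon length and gene span correction gave smaller falls for CHRNA5 (-0.28, edgeR FDR 0.00231) and CHRNA9 (-0.24, edgeR FDR 0.00227).

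The brain-type nicotinic genes CHRNA4 and CHRNB2, whose products form the common high-affinity nicotine receptor, were called higher. CHRNA4 (chr20:61974575-62009753) had 1.26, 2.22 and 1.65 CPM with EGFP and 4.54, 5.19 and 5.30 CPM with OmoMYC, a 2.95-fold rise (1.56 ± 0.19, edgeR FDR 9.03e-05). CHRNB2 had 71.3, 73.9 and 88.2 CPM with EGFP and 98.5, 94.0 and 105 CPM with OmoMYC (0.35 ± 0.09, edgeR FDR 0.0083). The CHRNB2 call was lost without EGFP replicate 2 or OmoMYC replicate 3 (edgeR FDR up to 0.0652) and with the GC content, exon length and gene span correction (0.08, edgeR FDR 0.157). The summed nicotinic level per kb was 109 ± 6.50 with EGFP and 98.3 ± 1.22 with OmoMYC. The other 7 tested nicotinic genes were not called. Among them CHRNG shares 66.9% of its exon bases with TIGD1 on the other strand, and CHRNA7 has a partial copy, CHRFAM7A, that can take or give reads.

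Of the muscarinic receptors, which are the G protein-coupled acetylcholine receptors, CHRM1 was called higher at 2.56, 2.40 and 3.27 CPM with EGFP against 3.62, 3.37 and 4.70 CPM with OmoMYC (0.50 ± 0.18, edgeR FDR 0.0356). The call was lost without EGFP replicate 1 or 2 or OmoMYC replicate 1 or 3, up to an edgeR FDR of 0.185, and with the GC content, exon length and gene span correction (edgeR FDR 0.26). CHRM4, the highest member per kb, was not called (4.15 ± 0.77 to 3.66 ± 0.42 CPM). Of the serotonin receptor genes, HTR7, which encodes a receptor that stimulates adenylyl cyclase, went from 6.72, 5.52 and 5.92 CPM to 4.43, 4.75 and 4.51 CPM (-0.41 ± 0.12, edgeR FDR 0.0166), and lost its call without OmoMYC replicate 1 (edgeR FDR 0.059). HTR3A, the one serotonin-gated channel subunit able to form receptors by itself, was not called (41.9 ± 6.34 to 41.2 ± 1.33 CPM).

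P2X receptors are ATP-gated cation channels of sensory and autonomic neurons, among other cells. P2RX3 (ENSG00000109991.4, chr11:57105826-57139869), typical of nociceptive sensory neurons, had 8.96, 9.24 and 9.85 CPM with EGFP and 27.0, 28.7 and 29.6 CPM with OmoMYC, a 3.05-fold rise (1.61 ± 0.09, edgeR FDR 3.22e-07). P2RX2, whose product joins it in mixed channels, had 0.536, 0.645 and 1.69 CPM with EGFP and 1.74, 1.76 and 2.34 CPM with OmoMYC (1.03 ± 0.35, edgeR FDR 0.0309). The highest EGFP library nearly reached the lowest OmoMYC library. Its log2 fold change was 1.68 without EGFP replicate 3, and the call was lost without EGFP replicate 1 or 2 or OmoMYC replicate 2 or 3, up to an edgeR FDR of 0.122.

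P2RX6 (0.45 ± 0.17, edgeR FDR 0.0453) and P2RX4 (0.37 ± 0.14, edgeR FDR 0.0418) were called higher by less, and P2RX5 was not called. The P2RX6 call was lost on leaving out any 1 library other than EGFP replicate 2 (edgeR FDR up to 0.184), in DESeq2 and with the GC content, exon length and gene span correction (edgeR FDR 0.359), and the P2RX4 call on leaving out any 1 library other than EGFP replicate 3 (edgeR FDR up to 0.157). The summed P2X level was 5.63 ± 0.80 CPM per kb with EGFP and 11.1 ± 0.70 with OmoMYC, and P2RX3 made up 37.8% and 58.1% of it. P2RX5 shares 43.2% of its exon bases with the readthrough gene P2RX5-TAX1BP3 on the same strand.

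**Figure D4:**
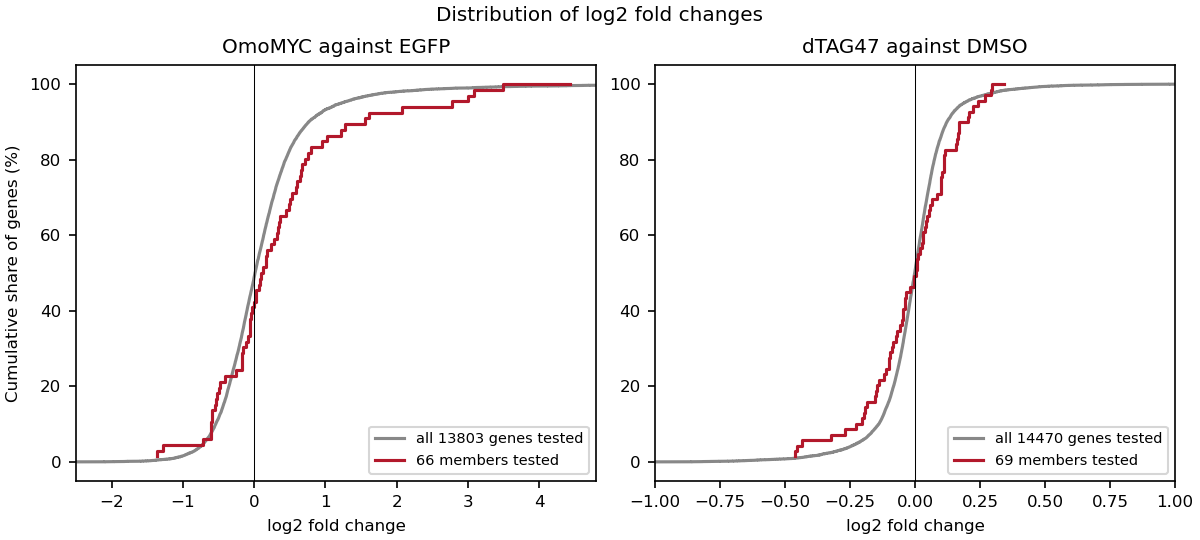
Cumulative share of genes (percent) by log2 fold change for all genes tested and for the receptor-rule genes, in OmoMYC against EGFP (left) and dTAG47 against DMSO (right, with a narrower axis). On the left 27 of the 66 members lie below no change, beside 6753 of all 13803 genes, and the members end at GRIA3 (4.43). The left axis is cut short of the lowest (-3.20) and highest (10.6) values of all genes. On the right the members run from -0.46 to 0.34.

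With dTAG47, none of the 69 members tested was called by edgeR, beside 0.159% of all 14470 genes. There were 7 members, or 10.1%, with an unadjusted p below 0.05 (GRIK2, GRID1, GRIA2, GRIK3, GABRQ, CHRNB1 and CHRNG), beside 7.28% of all genes, and neither DESeq2 nor limma-voom called any. The median log2 fold change was 0.01 (all genes, -0.00) and the values ran from -0.46 for CHRM5 to 0.34 for HTR1B, both below 1 CPM. The lowest edgeR FDR was 0.673. GRIK2 had 27.4, 25.8, 23.1 and 24.6 CPM with DMSO and 21.0, 24.9, 21.0 and 21.1 CPM with dTAG47 (-0.20 ± 0.07), and GRIK3 had 72.8, 73.9, 75.3 and 74.9 CPM against 77.2, 76.5, 82.1 and 81.9 CPM (0.10 ± 0.04). The GRIK2 groups overlapped and the GRIK3 groups did not. With a factor for replicates 1 and 2 against 3 and 4 in the fit, GRIK2 was called lower (-0.19, edgeR FDR 0.0234) and GRIK3 higher (0.10, edgeR FDR 0.0479), beside 5.49% of all genes called. Groups did not overlap for 5 members, or 7.25%, beside 3.34% of all genes.

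Of the genes that moved past 2-fold with OmoMYC, GRIA3, P2RX3 and GABRA5 had standard errors of 0.08 to 0.10 here. GRIA3 had 4.56, 5.12, 4.34 and 4.50 CPM with DMSO and 4.52, 6.05, 5.57 and 4.64 CPM with dTAG47 (0.17 ± 0.10, edgeR FDR 0.685). P2RX3 had 8.14 ± 0.74 CPM with DMSO and 8.23 ± 0.73 CPM with dTAG47 (SD, n = 4, 0.02 ± 0.08), and GABRA5 had 5.20 ± 0.29 and 5.62 ± 0.31 CPM (0.11 ± 0.08). For these 3 genes the fitted difference was at most 0.17 on the log2 scale. Others were measured less tightly. Leave-one-out fits ran from -0.63 to -0.03 for GRM5 and from -0.33 to 0.22 for GRM7. Of the genes highest per kb in their own families, CHRNA3 had 335 ± 2.82 CPM with DMSO and 325 ± 8.08 CPM with dTAG47 (-0.05 ± 0.04), HTR3A 77.2 ± 4.08 and 77.6 ± 3.87 CPM, and GABBR1 14.1 ± 0.17 and 14.1 ± 1.20 CPM.

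Receptors reach and stay at the membrane with the help of auxiliary subunits, scaffolds and chaperones, and the transmitters are made, broken down and carried by enzymes and transporters. Of 70 such partner genes tested in 7 classes with OmoMYC, 34 (48.6%) were called higher, beside 27.3% of all genes, 13 (18.6%) were called lower, beside 25.7%, and 23 were not called. The 67.1% called in either direction lies beside 53.0% of all genes, in a list chosen with earlier results of these data known. The median over the 70 was 0.32 on the log2 scale (all genes, 0.01). The GC content, exon length and gene span correction gave 28 higher and 19 lower, with 59% of all genes called. The nicotinic class of chaperones, modulators and endplate proteins had 6 higher and 2 lower of 8. LY6H, a GPI-anchored modulator of nicotinic receptors, went from 0.127 ± 0.06 to 3.17 ± 0.66 CPM (4.62 ± 0.34, edgeR FDR 2.76e-06), while LYPD6 and LRP4 fell. The LY6H level with EGFP rests on a few reads per library, so the size of its fold is limited by counting error. Every tested gene of this class was therefore called, in mixed directions.

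Auxiliary subunits of AMPA and kainate receptors had 6 higher and 3 lower of 12. The transmembrane AMPA receptor regulator CACNG7 went from 0.278 ± 0.09 to 1.72 ± 0.16 CPM (2.60 ± 0.27, edgeR FDR 3.49e-05), and the kainate auxiliary genes NETO1 and NETO2 fell. Glutamate receptor scaffolds had 9 higher and 3 lower of 17, counting SHANK2 under 2 identifiers, led by DLGAP2 (3.84 ± 0.14 to 12.1 ± 1.40 CPM, 1.65 ± 0.12, edgeR FDR 2.82e-06). GRIP1, which binds AMPA receptor tails, rose beside it (1.60, edgeR FDR 5.71e-06). Both classes thus held genes called in each direction.

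The GABA and glycine class had 6 higher and 1 lower of 10. Of the 10, 3 are GABA-B auxiliary genes. KCTD16 was called higher (1.84 ± 0.48 to 3.53 ± 0.45 CPM, 0.93 ± 0.20, edgeR FDR 0.00304), the more abundant KCTD12 was called lower (50.2 ± 4.34 to 31.7 ± 1.21 CPM, -0.66 ± 0.08, edgeR FDR 0.000128), and KCTD8 was not called (0.05 ± 0.11). The neuronal chloride extruder gene SLC12A5 went from 1.95 ± 0.32 to 4.02 ± 0.38 CPM (1.04 ± 0.16, edgeR FDR 0.000444). Enzymes had 3 higher and 2 lower of 9, with ACHE, which breaks down acetylcholine, called higher (1.01 ± 0.23, edgeR FDR 0.00401) and CHAT, which makes it, called lower (-0.55, edgeR FDR 0.000281). Transporters had 4 higher and 2 lower of 13. With dTAG47, none of 65 partner genes was called by edgeR, DESeq2 or limma-voom, and 8 had an unadjusted edgeR p below 0.05, a threshold passed by 7.28% of all genes.

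**Figure D5:**
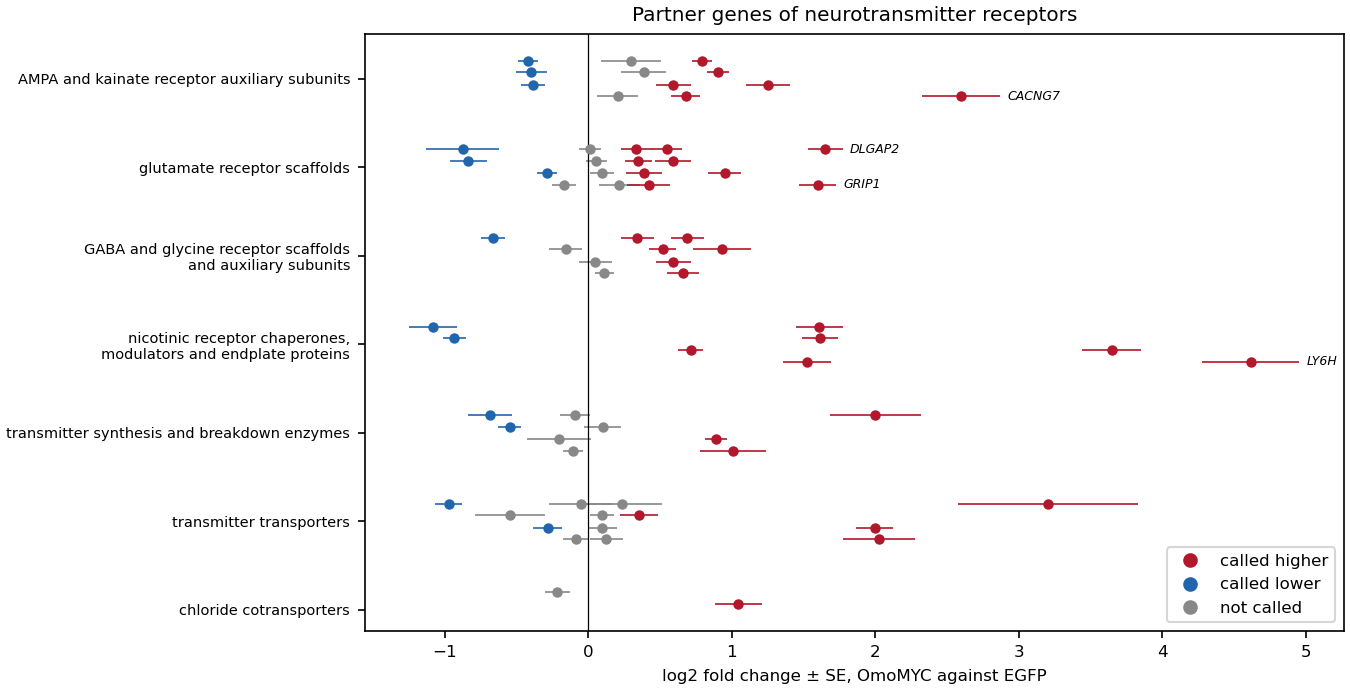
Log2 fold change with its standard error, OmoMYC against EGFP, for each tested partner gene in its class, with named labels for some of the genes described in the text. LY6H (4.62) lies farthest to the right, every point of the nicotinic class is coloured, and blue points (called lower) occur in each class except the chloride cotransporters.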

How the data were processed

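RNA-seq was done on 14 libraries of CHP-134 cells. Per the labels and the study's methods, the authors made the deposited counts per gene with featureCounts from STAR alignments to hg19, after trimming by Cutadapt. The annotation and strand setting are not given in the sources used here. Each table was fitted alone with the quasi-likelihood test of edgeR 4.0.16 (R 4.3.3, robust, filterByExpr, TMM scaling) over all genes, with Benjamini-Hochberg adjustment and a threshold of 0.05. CPM used the TMM-scaled library sizes, and values per kb used the union of exons in GENCODE v44lift37 (GRCh37), which held 92 of the 95 and 95 of the 96 members. The SE is the absolute log2 fold change divided by the root of F. The fit was tested on simulated data. Alternatives were DESeq2 1.42.0, limma-voom (limma 3.58.1), other scalings and filters, a feature correction, a replicate block and leaving out each library. p-values measure the spread between the libraries, which the study calls biological replicates.

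The members and gene lists were chosen with earlier results of these data known. Values are printed for called members with at least 1 CPM in their higher group, for up to 30 per comparison by absolute log2 fold change, for the member of each family highest per kb in EGFP or DMSO libraries, and for the called partner gene farthest from 0 in each class at 1 CPM or more. Other genes that are named were chosen after their values were seen. Some genes that meet this rule are not reported here, and counts over the members include them.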

Additional observations from a re-analysis of the deposited data

Results flagged for a closer look

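Of 146 groups of 4 parental libraries examined (members with at least 10 reads in 1 library), 8 held a library set apart from the other 3 by more than Dixon's 95% critical value, and chance alone would be likely to flag about 1 group in 20. In the dTAG47 group, replicate 2 accounted for 4 of them: GRIK2 was at 24.9 CPM beside 21.0 to 21.1 CPM, GRM5 at 0.557 CPM beside 0.212 to 0.259, CHRM5 at 0.743 CPM beside 0.139 to 0.235, and GRIN2B at 0.241 CPM (13 reads) beside 0 in the others. CHRNA4 in dTAG47 replicate 1 was low, at 1.25 CPM beside 1.93 to 2.04. In the DMSO group, CHRNA4 in replicate 2 was at 2.15 CPM beside 1.54 to 1.59, HTR3E in replicate 2 at 0.297 CPM beside 0.0648 to 0.0776, and GRIA2 in replicate 1 at 40.1 CPM beside 34.4 to 34.7. No member was called for dTAG47 with or without any 1 of these libraries.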

How the results depend on the processing

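With OmoMYC, 30 of the 34 called members were tested under every setting, and 20 of these 30 were called in each. The other 4, GABRB1 and GLRA2 among them, were not tested with the filter of at least 10 counts in every library, and 2 of the 4 were called in each setting that tested them. Leave-one-out fits alone kept 23 of the 34 calls. Across leave-one-out fits the higher calls numbered 15 to 25, the lower calls 9 to 13, and the median log2 fold change 0.0376 to 0.148. Over all genes, those fits called 41% to 58.9%. The correction for GC content, exon length and gene span gave 20 higher and 19 lower calls and a median of -0.0685, with 59% of all genes called. It held 28 of the 34 calls and reversed GRID1 (-0.10) and GRIN2D (-0.31). Tested members have a longer median span (89.1 kb) than all genes tested (35.0 kb), and the cause of the shift was not tested. It also called, among others, GRIK3, GRM2, GRM8, CHRNB4, CHRND, CHRM4 and HTR3A lower and GRIA4 and GLRB higher. DESeq2 gave 20 higher and 10 lower (all genes, 52.5% called), and limma-voom 24 and 10 (all genes, 53.3% called).

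Same-numbered libraries correlated in their deviations by -0.11 to 0.46 in the OmoMYC table and by 0.0999 to 0.40 in the parental table. EGFP replicate 1 correlated best with OmoMYC replicate 2 (0.42), and DMSO replicate 1 with dTAG47 replicate 2 (0.47), so the numbers were not taken to pair the libraries. With the replicate block the OmoMYC member calls were 26 higher and 12 lower of 66 tested, beside 58.7% of all genes called in either direction. For dTAG47 the block raised the calls over all genes from 23 (0.159%) to 668 (4.62%), with 1 lower member (GRIK2, edgeR FDR 0.0296) and 4 higher and 2 lower partner genes. A factor for replicates 1 and 2 against 3 and 4 called 794 genes (5.49%), with 1 higher (GRIK3) and 1 lower (GRIK2) member, and 4 higher and 2 lower partner genes. For dTAG47 the feature correction gave 1 higher partner gene, with 0.891% of all genes called. Genes with a few reads per library, among them the member GABRB1 and the partner gene LY6H in EGFP cells, have folds limited by counting error.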
